A study of Bos taurus with 8 samples.

Results

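The small leucine-rich proteoglycans, matricellular proteins and matrix remodelling enzymes of skeletal muscle were followed in a comparison of well-marbled and lean cattle breeds. The group was set by name as 10 genes: DCN, LUM, BGN, FMOD, SPARC, LOX, TIMP1, TIMP2, TIMP3 and MMP2. A gene entered through array probes whose RefSeq transcript belongs to it, and its brightest probe well above background in at least 4 of 16 channel readings stood for it. With 8 of the 10 genes measured, out of 6642 named genes and 17061 probes kept in all, LOX and TIMP3 had no matched probe and were not analysed here.

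Total RNA of the semitendinosus muscle, a hind limb muscle, came from 4 Hereford, 4 Holstein-Friesian and 4 Limousin bulls, all aged 15 months. The study set the marbled breeds, Hereford and Holstein-Friesian, against the lean Limousin, and nothing but breed was varied. Each of 8 bovine Agilent 2-colour arrays carried 1 marbled-breed bull and 1 Limousin bull, and the same 4 Limousin bulls were used for both breeds. The first slide held Hereford in Cy5 beside Limousin in Cy3, and the second held Holstein-Friesian in Cy3 beside Limousin in Cy5. Replicate numbers below are those of the arrays and so of the Limousin bull on them.

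Decorin (DCN), lumican (LUM), biglycan (BGN) and fibromodulin (FMOD) are small secreted proteoglycans with leucine-rich repeat cores. They bind collagen fibrils and set their spacing and thickness, and decorin and biglycan also bind TGF-beta. SPARC, or osteonectin, is a collagen-binding matricellular glycoprotein that acts on how cells handle the matrix more than as a structural part of it. MMP2 is a gelatinase that cleaves denatured and basement membrane collagen, and TIMP1 and TIMP2 inhibit the metalloproteinases. In muscle these proteins lie in the connective tissue sheaths around fibres and fascicles, where intramuscular fat is also laid down.

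The sampled tissue carried its defining markers: 11 of 16 listed skeletal muscle genes were measured, and all 11 were well above background in all 16 readings. Median net signal was 97 to 139 in Hereford channels and 63 to 88 in the Limousin channels beside them. It was 30.5 to 46.5 in Holstein-Friesian channels, lower than the 96.5 to 118 of Limousin on the same slide. Each marbled breed had 1 dye and 1 slide of its own, so breed, dye and slide cannot be told apart within a breed comparison. A dye bias of the same size on both slides drops out of the mean of both breeds and is added in their difference. Bulk RNA does not separate fewer cells of a type from less RNA per cell, which holds for every value below. Within a breed comparison, nothing in the labels beyond the bull distinguishes the samples. Each ratio holds a marbled-breed bull, a Limousin bull and an array, so the tests measure the spread of these together.

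All 8 measured genes were well above background in all 16 readings, and 0 were saturated on any array. Values are log2 ratios of the marbled breed over Limousin per array, and a call needs a Benjamini-Hochberg adjusted p under 0.05 in limma over all 17061 probes. Of the 8 genes, 1 passed in Holstein-Friesian, SPARC, which was lower than in Limousin. In Hereford 0 passed, and 0 had an unadjusted p under 0.05. Over all probes 6.45% were called in Holstein-Friesian (3.45% lower) and 7.14% in Hereford, and 1 call among 8 genes is read against that background. The median ratio of the 8 genes was -0.00033 in Holstein-Friesian and 0.02 in Hereford, beside -0.015 and 0.0075 over all probes.

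**Figure D1:**
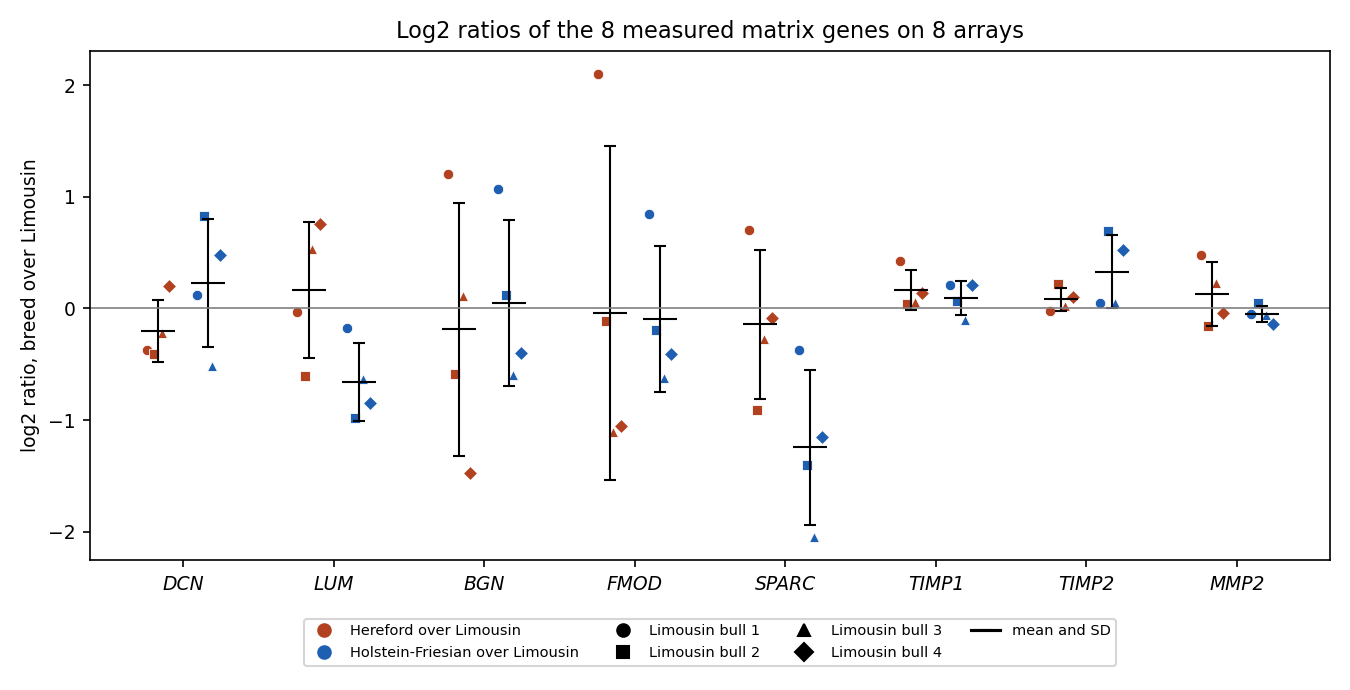
Log2 ratio of each of the 8 genes on every array, Hereford over Limousin and Holstein-Friesian over Limousin, with a point per array, shaped by its Limousin bull, and black bars for the mean and SD of the 4 arrays. All 4 Holstein-Friesian arrays lie below 0 for SPARC and LUM, and the Hereford ratios of FMOD span -1.10 to 2.10.

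SPARC was the gene with the lowest Holstein-Friesian ratio of the group. Its log2 ratios were -0.38, -1.41, -2.05 and -1.15 on replicates 1 to 4. The signal fell to 0.422 times that of Limousin, a mean log2 ratio of -1.24 ± 0.69 (SD, n = 4 arrays; 95% interval -1.93 to -0.56; limma adjusted p = 0.0472). On the log2 intensity scale of single channels, Holstein-Friesian bulls read 13.68, 13.77, 12.89 and 13.89, against 14.06, 15.18, 14.93 and 15.04 in Limousin on the same arrays. The highest Holstein-Friesian bull stood below the lowest Limousin bull, so the groups did not overlap. How many of all probes separate the groups in this way was not counted. At an unadjusted p under 0.05 there were 23.5% of all probes in this breed.

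In Hereford the SPARC ratios were 0.71, -0.91, -0.27 and -0.09, with a mean of -0.14 ± 0.67 (SD, n = 4; limma adjusted p = 0.836). Hereford bulls read 15.10, 14.45, 14.71 and 15.01 log2 units, against 14.39, 15.36, 14.98 and 15.10 in Limousin. Here the groups overlapped, and the first replicate lay above its Limousin partner while the other 3 lay below. The SPARC ratio was higher in Hereford than in Holstein-Friesian for all 4 Limousin partners, by 1.10 log2 units (95% interval 0.14 to 2.07). That difference missed the threshold (limma adjusted p = 0.187) in a fit that did not pair the arrays by Limousin bull. It was not called with the Limousin bull as a block either, so SPARC was not shown to differ between the breeds.

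The Holstein-Friesian call for SPARC was close to its threshold. It was lost without replicate 2 (limma adjusted p = 0.159), without replicate 3 (mean -0.98, limma adjusted p = 0.190) and without replicate 4 (limma adjusted p = 0.190). It was also lost with no filter on dim probes (limma adjusted p = 0.0620) and when the Holstein-Friesian arrays were fitted alone (limma adjusted p = 0.0694). Over all probes those fits without a replicate also called fewer, at 78, 275 and 127 probes in place of 1100. The ratio stayed negative under every alternative run. Setting Holstein-Friesian against the same Limousin bulls in the same dye gave -1.40 (limma adjusted p = 0.0311). In every same-dye comparison the breed and Limousin came from different slides, so breed and slide cannot be told apart there.

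**Figure D2:**
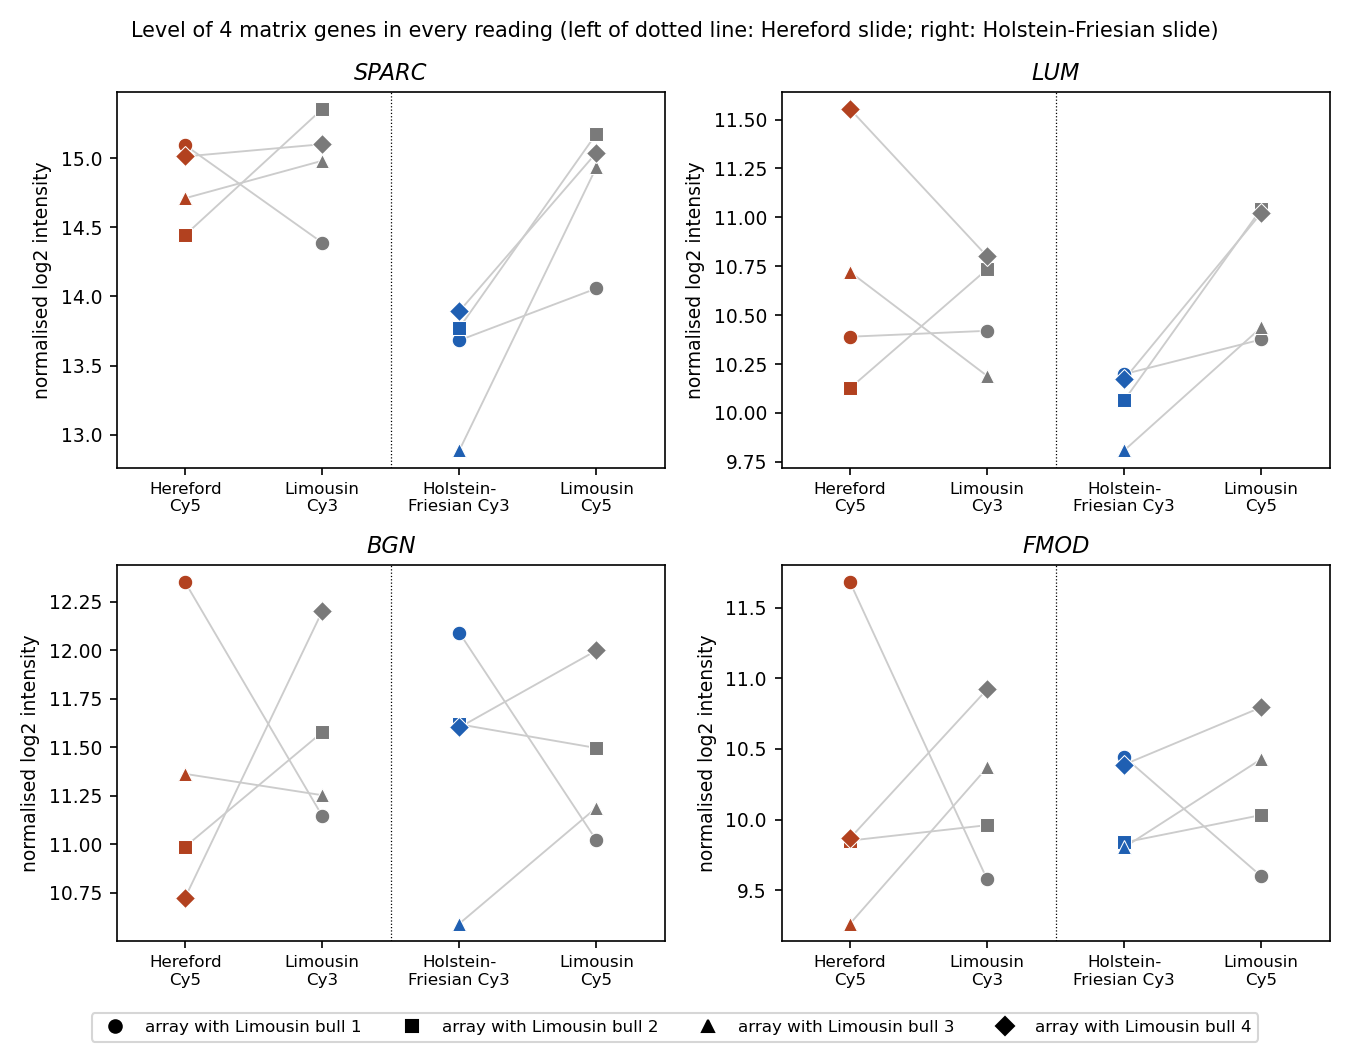
Single-channel log2 intensity of SPARC, LUM, BGN and FMOD in each bull, marbled breed left of the Limousin channel on the same slide, with each point 1 bull and lines joining the bulls of 1 array (the axes do not start at 0). SPARC and LUM separate Holstein-Friesian from Limousin on the same slide without overlap, which was not counted over all probes. For LUM the lowest Limousin reading on the Hereford slide, 10.19, lies below the highest Holstein-Friesian reading, 10.20. For BGN and FMOD the spread within a breed exceeds the distance between breeds.

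Among the proteoglycans, lumican had the lowest ratios in Holstein-Friesian, although it did not pass. LUM is a keratan sulphate proteoglycan that binds fibrillar collagen. Its Holstein-Friesian ratios were -0.18, -0.98, -0.63 and -0.85, below 0 on all 4 arrays, with a mean of -0.66 ± 0.35 (SD, n = 4; limma adjusted p = 0.118, unadjusted p = 0.0166). Holstein-Friesian bulls read 10.20, 10.06, 9.81 and 10.17 log2 units, against 10.38, 11.04, 10.44 and 11.02 in Limousin on the same arrays. These readings did not overlap, a separation that was not counted over all probes. Limousin on the Hereford slide, in the same dye as Holstein-Friesian, read down to 10.19, so against those readings the groups overlapped. The Hereford ratios were -0.03, -0.61, 0.53 and 0.75, a mean of 0.16 ± 0.61 (SD, n = 4; limma adjusted p = 0.730). Replicates 3 and 4 lay above Limousin in Hereford and below it in Holstein-Friesian. The difference between the breeds was 0.82 log2 units (95% interval 0.11 to 1.53) and did not pass (limma adjusted p = 0.185). That fit was not paired by Limousin bull, and with the bull as a block the difference was not called either.

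Decorin, a dermatan sulphate proteoglycan of muscle connective tissue, gave ratios of opposite sign in the breeds and passed in neither. In Hereford the DCN ratios were -0.37, -0.41, -0.22 and 0.20 (mean -0.20 ± 0.28, SD, n = 4; limma adjusted p = 0.616). In Holstein-Friesian they were 0.12, 0.83, -0.51 and 0.48 (mean 0.23 ± 0.57, SD, n = 4; limma adjusted p = 0.548). Centring each array on its median in place of loess turned both signs, to 0.11 in Hereford and -0.43 in Holstein-Friesian. A second, dimmer DCN probe gave 0.13 in Hereford and 0.07 in Holstein-Friesian, so the probes disagreed in sign for Hereford. The direction for decorin thus depended on the probe and on the scaling.

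Biglycan and fibromodulin had the widest spread of Hereford ratios in the group, and neither passed in either breed. BGN, which carries chondroitin or dermatan sulphate chains, had Hereford ratios of 1.20, -0.59, 0.11 and -1.48 (mean -0.19 ± 1.13, SD, n = 4; limma adjusted p = 0.845). Its Holstein-Friesian ratios were 1.07, 0.12, -0.60 and -0.40 (mean 0.05 ± 0.75, SD, n = 4; limma adjusted p = 0.962). In both breeds the first replicate was the highest, and the ratios of both breeds straddled 0.

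FMOD, abundant in tendon as well as muscle connective tissue, had Hereford ratios of 2.10, -0.11, -1.10 and -1.05 (mean -0.04 ± 1.50, SD, n = 4; limma adjusted p = 0.976). In Holstein-Friesian the ratios were 0.84, -0.19, -0.62 and -0.40 (mean -0.09 ± 0.65, SD, n = 4; limma adjusted p = 0.939). Replicate 1 was again above 0 in both breeds and the other 3 replicates below 0. Limousin bull 1, shared by both first replicates, had the lowest BGN and FMOD level of its breed.

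Hereford replicate 1 also stood apart in genes of tendon. COMP, a cartilage and tendon matrix protein, read 10.53 log2 units in that bull and 6.08 to 6.16 in the other 3 Hereford bulls, and was well above background in 9 of the 16 readings over all arrays. THBS4, a thrombospondin of tendon and muscle, read 13.57 in that bull and 10.44 to 11.09 in the others. MKX, a tendon transcription factor, read 7.19 in that bull and 6.02 to 6.33 in the others, and was well above background in 10 of the 16 readings. Holstein-Friesian replicate 1 had a COMP level of 7.60, against 6.09 to 6.24 in the other 3 bulls of that breed. Of the 6 tendon markers listed, 4 were measured, FMOD itself among them, and their summed log2 level spanned 11.06 to 14.06 in Hereford and 11.25 to 12.12 in the Limousin channels beside them. In a fit without Hereford replicate 1, chosen after seeing the data, the Hereford ratio of FMOD was -0.76 (limma adjusted p = 0.180), that of BGN -0.65 (limma adjusted p = 0.335) and that of SPARC -0.42 (limma adjusted p = 0.431). The part of tendon tissue in these ratios was not tested.

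Neither inhibitor of metalloproteinases passed in either breed. TIMP1, a secreted inhibitor of most soluble metalloproteinases, had Hereford ratios of 0.42, 0.04, 0.06 and 0.13, all above 0 (mean 0.16 ± 0.18, SD, n = 4; limma adjusted p = 0.286). Its Holstein-Friesian ratios were 0.21, 0.06, -0.11 and 0.21 (mean 0.09 ± 0.15, SD, n = 4; limma adjusted p = 0.561). Without Hereford replicate 1 the Hereford mean was 0.08.

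TIMP2, which inhibits MMP2 and also takes part in its activation at the cell surface, had Holstein-Friesian ratios above 0 on all 4 arrays. They were 0.05, 0.69, 0.05 and 0.52 (mean 0.33 ± 0.33, SD, n = 4; limma adjusted p = 0.131, unadjusted p = 0.0201). Holstein-Friesian bulls read 12.35, 12.71, 12.25 and 13.03 log2 units, against 12.30, 12.01, 12.20 and 12.51 in Limousin, and the groups overlapped. In Hereford the ratios were -0.02, 0.22, 0.02 and 0.10 (mean 0.08 ± 0.10, SD, n = 4; limma adjusted p = 0.743). The Holstein-Friesian mean turned to -0.31 with median centring, so its direction rests on the scaling.

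MMP2 itself had Hereford ratios of 0.48, -0.16, 0.23 and -0.04 (mean 0.13 ± 0.29, SD, n = 4; limma adjusted p = 0.4996). Its Holstein-Friesian ratios were -0.05, 0.05, -0.06 and -0.14 (mean -0.05 ± 0.07, SD, n = 4; limma adjusted p = 0.819). MMP2 was the 1 gene of the 8 that passed in a check of the dyes, in which each Limousin bull in Cy5 was set against itself in Cy3 (4.4% of all probes passed). It read 0.22 ± 0.04 log2 units higher in Cy5 (SD, n = 4 bulls; limma adjusted p = 0.0499). Against Limousin in the same dye the MMP2 ratios changed sign, to -0.09 in Hereford and 0.17 in Holstein-Friesian, and neither passed. The dyes were read on different slides, so dye and slide cannot be told apart in the check of the dyes. The shift of 0.22 was larger than the mean breed ratio of this gene in either breed.

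With both breeds averaged for each Limousin bull, 0 of the 8 genes passed in limma, beside 0.598% of all probes called. At an unadjusted p under 0.05 there was 1 gene, beside 19.6% of all probes. With the Limousin bull as a block on all 8 arrays, 910 probes passed in this comparison in place of 102, and still none of the 8 genes. SPARC had the lowest mean, -0.69 ± 0.63 (SD, n = 4 bulls; limma adjusted p = 0.227), with values of 0.17, -1.16, -1.16 and -0.62. LUM was below 0 for all 4 bulls, with a mean of -0.25 ± 0.36 (limma adjusted p = 0.450, n = 4). TIMP2 was above 0 for all 4, with a mean of 0.21 ± 0.22 (limma adjusted p = 0.326, n = 4). The other 5 genes averaged between -0.07 and 0.13.

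In the difference of Hereford minus Holstein-Friesian, 0 of the 8 genes passed in limma and 2, LUM and SPARC, had an unadjusted p under 0.05. Of all probes, 2.71% passed and 21.1% had an unadjusted p under 0.05. Both genes had a positive difference for all 4 Limousin partners, and TIMP2 a negative one for all 4 (mean -0.25, limma adjusted p = 0.425). Both comparisons share the Limousin bulls, so a high or low Limousin bull moves both ratios alike.

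The Limousin bulls, each read once in either dye, gave the spread within 1 breed. The SD between the 4 bulls, from the mean of each bull's readings, was 0.54 log2 units for FMOD, 0.46 for SPARC and 0.45 for BGN. It was 0.32 for LUM, 0.23 for TIMP2, 0.20 for DCN, 0.16 for TIMP1 and 0.16 for MMP2. All 8 values lay above 0.122, the median over all kept probes, and 4 lay above 0.291, their 90th percentile. That reference was not matched for brightness. All 8 genes were well above background in all 16 readings, as were 12961 of the 17061 kept probes. A single reading had an SD of 0.03 to 0.12 within a bull once the mean shift between dyes and slides was taken out. Its median over all kept probes was 0.082. The differences between both readings of a bull had an SD from 0.04 for MMP2 to 0.17 for DCN. The SD between bulls was 10.4 times that of a single reading for BGN and 8.39 times for FMOD. It was 1.60 times for DCN, the lowest of the 8 genes.

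**Figure D3:**
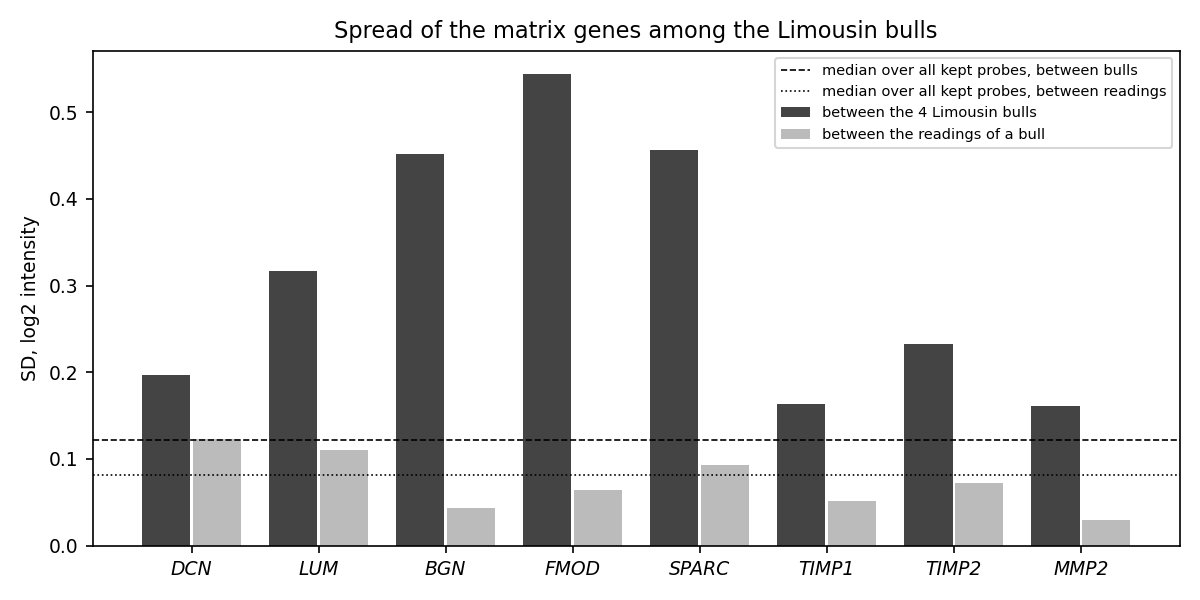
SD between the 4 Limousin bulls and SD of a single reading within a bull, in log2 units, for each of the 8 genes, with the medians over all kept probes drawn as lines. FMOD, SPARC and BGN have the largest spread between bulls, at 0.54, 0.46 and 0.45, and every gene varies more between bulls than between readings.

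On some arrays several of the genes lay on the same side of Limousin. On Hereford replicate 1 the median ratio of the 8 genes was 0.45, with 5 genes above 0 and 3 below, FMOD the highest and DCN the lowest. On Hereford replicate 2 it was -0.28, with 6 of 8 genes below 0 and SPARC the lowest. Holstein-Friesian replicate 3 had a median of -0.56, with 7 of 8 genes below Limousin. The median over all probes lay within 0.03 of 0 on every array.

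Across the 8 arrays the ratios of some genes followed each other. The arrays share 4 Limousin bulls and are not independent, so the correlations are a description and carry no p. Of 28 pairs of genes, 15 had a positive Pearson r and the median was 0.157. DCN with TIMP2 had the highest r, 0.820, followed by BGN with FMOD at 0.804, and the lowest r was -0.682. DCN with TIMP2 was at 0.890 over the Holstein-Friesian arrays and at -0.0064 over the Hereford arrays, so that pair rests on 1 breed. SPARC followed the collagens, with an r of 0.930 with COL1A2, 0.914 with COL1A1 and 0.901 with COL3A1, and 0.527 with COL18A1.

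Over the same 8 arrays, the named genes with the most similar ratios were ranked for each gene among 6641 others by Pearson r. For SPARC they were NLRP12 (r = 0.972) and PC (0.965), and for LUM UQCRFS1 (0.984) and RSRP1 (0.965). DCN ran closest to MFSD10 (0.959) and IFRD1 (0.956), BGN to GUK1 (0.938) and CLN8 (0.934), and FMOD to SLC18A2 (0.973) and PPP1R1B (0.971). TIMP1 was closest to NID1 (0.972) and MFAP2 (0.970), which encode a basement membrane and a microfibril protein. TIMP2 was closest to HM13 (0.970) and STAMBP (0.933), and MMP2 to SYNJ1 (0.951) and PCED1A (0.919). With 8 arrays and that many genes, values of this size are the top of a long ranking.

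Wider lists of matrix genes, which hold the 8 genes too, showed calls in other members of the same families. Of 28 proteoglycan genes listed, 11 were measured, and 0 passed in limma in either breed. At an unadjusted p under 0.05, 1 of them did in Hereford and 4 in Holstein-Friesian, beside 24.2% and 23.5% of all probes, the shares against which the unadjusted counts for these breeds are read. With median centring 4 of the 11 proteoglycans were called lower in Holstein-Friesian (9 below 0, median -0.43) and 3 higher in the difference. That setting called 6678 and 6219 of all probes in these comparisons. From the deposited log ratios 1 was called higher in Holstein-Friesian. Of 22 matricellular genes, 14 were measured. In Holstein-Friesian 3 of them were higher and 1, SPARC, was lower, beside the 6.45% of all probes, while in Hereford 0 passed (3 at an unadjusted p under 0.05).

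CCN1, a matricellular protein of the immediate early response, rose by 2.50 log2 units in Holstein-Friesian (arrays 1.28 to 3.61; limma adjusted p = 0.0363). FBLN5, a fibulin needed for elastic fibre assembly, rose by 0.98 (arrays 0.79 to 1.24; limma adjusted p = 0.00288). TNXB, a large glycoprotein that links collagen fibrils, rose by 0.94 (arrays 0.60 to 1.39; limma adjusted p = 0.0103). For FBLN5 and TNXB the difference between the breeds was itself called, at -1.03 for FBLN5 (limma adjusted p = 0.0139) and -1.36 for TNXB (limma adjusted p = 0.0207), Hereford minus Holstein-Friesian. SPARC was lower in the same breed, so the 4 calls of the list ran in both directions. With median centring 1 of the list was higher, CCN1, and 1 lower, SPARC.

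**Figure D4:**
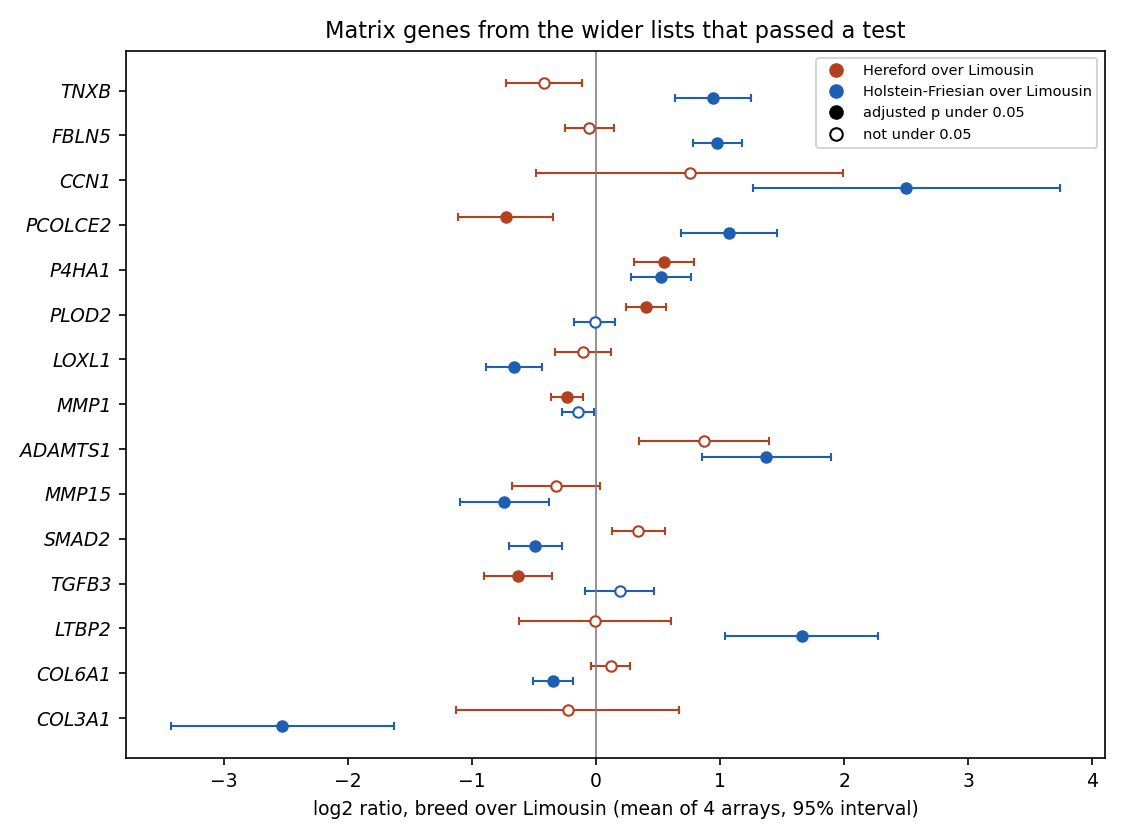
Mean log2 ratio with its 95% interval for the genes of the wider lists that passed a test, Hereford over Limousin and Holstein-Friesian over Limousin, filled where the adjusted p was under 0.05. In Holstein-Friesian, COL3A1 lies lowest at -2.53 and CCN1 highest at 2.50.

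Among 12 measured genes of collagen processing, of 17 listed, 2 were higher and 1 lower in each breed, beside 7.14% of all probes called in Hereford and 6.45% in Holstein-Friesian. With median centring 0 passed in Hereford, and in Holstein-Friesian 0 were higher and 4 lower. PCOLCE2, which enhances the cleavage of procollagen, fell in Hereford by 0.73 log2 units (limma adjusted p = 0.0401) and rose in Holstein-Friesian by 1.07 (limma adjusted p = 0.0132). Its difference between the breeds was -1.80 (limma adjusted p = 0.0174). P4HA1, the catalytic subunit of a prolyl hydroxylase, rose by 0.55 in Hereford (limma adjusted p = 0.0248) and by 0.53 in Holstein-Friesian (limma adjusted p = 0.0282). PLOD2, a lysyl hydroxylase of collagen cross-linking, rose by 0.40 in Hereford (limma adjusted p = 0.0203). LOXL1, a relative of the unmeasured LOX that cross-links elastin, fell by 0.66 in Holstein-Friesian (limma adjusted p = 0.0114). Against Limousin in the same dye, PCOLCE2 was not called in Hereford, nor P4HA1 in Holstein-Friesian.

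Of 37 metalloproteinase and inhibitor genes, 19 were measured. In Hereford 1 was lower, beside 7.14% of all probes called. In Holstein-Friesian 1 was higher and 1 lower, beside 6.45% of all probes. With median centring 4 were higher and 5 lower in Holstein-Friesian, and 0 passed in Hereford. MMP1, an interstitial collagenase, fell by 0.23 in Hereford (limma adjusted p = 0.0447). In Holstein-Friesian ADAMTS1, a secreted protease of proteoglycans, rose by 1.37 (limma adjusted p = 0.0157) and MMP15, a membrane-bound metalloproteinase, fell by 0.74 (limma adjusted p = 0.0330). Without median centring, neither TIMP1 nor TIMP2, nor MMP2, was among the calls.

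Of 16 genes of TGF-beta and matrix-bound growth factors, 9 were measured. In Hereford 1 was lower, and in Holstein-Friesian and in the difference 1 was higher and 1 lower. Over all probes 7.14%, 6.45% and 2.71% were called in these comparisons. With median centring 0 passed in Hereford, 1 was higher and 3 lower in Holstein-Friesian, and 2 were higher and 1 lower in the difference. TGFB3, a TGF-beta ligand, fell by 0.63 in Hereford (limma adjusted p = 0.0250), with a difference between the breeds of -0.82 (limma adjusted p = 0.0487). LTBP2, a microfibril protein of the latent TGF-beta binding family, rose by 1.66 in Holstein-Friesian (limma adjusted p = 0.0144). SMAD2, which carries the TGF-beta signal to the nucleus, fell by 0.49 in Holstein-Friesian (limma adjusted p = 0.0244), with a difference between the breeds of 0.83 (limma adjusted p = 0.0263). Against Limousin in the same dye SMAD2 and TGFB3 were no longer called.

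All 6 measured collagens, of 14 listed, had a negative mean in Holstein-Friesian, with a median of -0.86, and 2 passed, beside 6.45% of all probes. With median centring all 6 were called lower (median -1.47), and without replicate 2 or without replicate 4 the count was 0. COL3A1, the chain of type III collagen of the perimysium, fell by 2.53 log2 units (arrays -4.23 to -1.75; limma adjusted p = 0.0125). COL6A1, of type VI collagen around the fibres, fell by 0.35 (limma adjusted p = 0.0282) and had a called difference of 0.46 (limma adjusted p = 0.04999). Against Limousin in the same dye that difference for COL6A1 was -0.23 and its Holstein-Friesian ratio -0.00087. In Hereford the collagen median was 0.11 and 0 of 6 passed, with 0 at an unadjusted p under 0.05. With both breeds averaged, 0 genes of any of these lists passed in limma, while 0 to 5 genes of each list had an unadjusted p under 0.05, as did 19.6% of all probes. With the Limousin bull as a block, 2 matricellular genes were called higher, 1 collagen processing gene higher and 1 lower, 1 metalloproteinase or inhibitor gene higher and 1 lower, and 1 collagen lower.

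Leaving out a replicate removed most calls outside the 8 genes, as it did over all probes. Of the 12 in Holstein-Friesian, 8 were kept without replicate 1, 1 without replicate 2, 5 without replicate 3 and 1 without replicate 4, and 1 gene, FBLN5, was kept in all 4. Over all probes the Holstein-Friesian calls numbered 810, 78, 275 and 127 in those fits, in place of 1100. Of the 5 in Hereford, 2 were kept without replicate 1 and 0 without any other replicate, and 0 were called on the Hereford arrays alone, where 27 probes in all were called. Of the 6 in the difference, 5 were kept without replicate 1 and 0 without any other. Some ratios moved little in these fits: LOXL1 in Holstein-Friesian ranged from -0.70 to -0.63 and the SMAD2 difference from 0.78 to 0.90. The TNXB difference ranged from -1.51 to -1.25. Others moved more in Holstein-Friesian, CCN1 from 2.13 to 2.91, COL3A1 from -2.79 to -1.96 and LTBP2 from 1.34 to 1.81. The sign of each call was kept. With median centring 8 of the 12 Holstein-Friesian calls, 0 of the 5 in Hereford and 3 of the 6 in the difference were kept.

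Markers of other cells were measured beside these genes. Calls among them are read against 7.14% of all probes in Hereford, 6.45% in Holstein-Friesian and 2.71% in the difference. Of 12 fibroblast markers, 9 were measured, all well above background in all 16 readings, and 0 passed in limma in either breed (2 in Hereford and 0 in Holstein-Friesian at an unadjusted p under 0.05). Summed over the 9 genes, their log2 level was 13.59 to 14.18 in Holstein-Friesian, against 13.93 to 14.43 in Limousin. In Hereford it was 13.70 to 14.13, against 13.95 to 14.45 in Limousin. The fibroblast median ratio was -0.01 in Holstein-Friesian, where SPARC was called, and -0.22 in Hereford. With median centring it was -0.63 in Holstein-Friesian, with 5 of 9 called lower, and 0.0056 in Hereford. All 4 measured macrophage markers, of 10 listed, were above 0 in Holstein-Friesian (median 0.55), with 0 called in limma and 2 at an unadjusted p under 0.05. In Hereford all 4 were below 0 (median -0.31), with 0 called and 2 at an unadjusted p under 0.05. Summed over the 4 genes, the level was 10.66 to 11.45 log2 units in Hereford, against 11.12 to 12.18 in Limousin, and 11.60 to 13.21 in Holstein-Friesian, against 10.79 to 11.91 in Limousin. Skeletal muscle markers were above 0 in Hereford for all 11 genes measured (median 0.29, 1 called higher, MYH7), and in Holstein-Friesian 5 were above 0 (median -0.08, 2 called lower, ENO3 and MB). In the difference 10 of the 11 were above 0 (median 0.46, 1 called, MB). Against Limousin in the same dye 5 of the 11 were above 0 in Hereford (median -0.018) and 5 in the difference (median -0.085). In Holstein-Friesian 7 were above 0 in the same dye (median 0.26). The deposited log ratios gave 8 above 0 in Hereford and 8 in the difference, and median centring gave all 11 in both. Of 10 measured adipocyte markers, CFD was called higher and CIDEA lower in Holstein-Friesian, and 0 passed in Hereford, with 2 at an unadjusted p under 0.05. All 7 measured endothelial markers were above 0 in Holstein-Friesian (median 0.11), with 0 called and 0 at an unadjusted p under 0.05. Against Limousin in the same dye 5 of these 7 were above 0 (median 0.04), and with median centring 2 were (median -0.03). The smooth muscle genes CNN1 (1.09, limma adjusted p = 0.0254) and RGS5 (0.77, limma adjusted p = 0.00816) were called higher in Hereford, with 8 of 10 listed markers measured. Of these 8, 6 were above 0 in Hereford (median 0.14) and 7 in Holstein-Friesian (median 0.20), where 0 were called. On the Hereford arrays alone 0 of them were called, and 27 probes in all. The part of these cells in the ratios above was not tested.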

How the data were processed

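Per the submitters' processing notes, spots were quantified with Agilent Feature Extraction 10.7.3.1. The authors deposited scanner output in which each spot and its background have an intensity, the median over pixels in each channel. A deposited table of log10 ratios (Cy5 over Cy3) equalled the scanner's log ratio on 8 of 8 arrays, so it gives Limousin over Holstein-Friesian on that slide. Scanner flags marked other properties of spots (well above background, saturation, outliers), as the file headers name them. The number of value columns that matched no sample was 0.

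Mean signals had been planned, but the scanner output used here holds medians, which were used. In R 4.3.3 with limma 3.58.1, background was corrected with normexp (offset 50) and arrays were normalized with loess (span 0.3, controls at weight 0). Every ratio was expressed as marbled breed over Limousin. Outlier spots were dropped, spots of a probe averaged, and 17061 of 21475 probes kept. Single-channel levels followed loess and Aquantile scaling and are not comparable between probes. Symbols were looked up by accession in RefSeq (ARS-UCD2.0), with no coordinates taken from it. No sequences were used.

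Breed means were fitted over 8 arrays with lmFit and eBayes. The averaged comparison used 4 values, 1 per Limousin bull. Tests were two-sided with Benjamini-Hochberg adjustment over all kept probes, and the fit was tested on simulated data. The replicate number marks the same Limousin bull on both slides. Deviations from the breed means correlated at 0.415, 0.273, 0.5004 and 0.0987 for replicates 1 to 4.

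The genes and lists were chosen with earlier results of these data known. Beyond the 10 genes, the text names list genes called with 1 direction in all arrays (at most 4 per list and comparison, by size), and the 2 nearest genes by Pearson r. Tendon and cell markers were described after their values were seen. Alternatives covered the scaling, filter, offset, dye, block, probe rule and leaving out replicates. The number of arrays limits the precision. Figures were drawn with matplotlib 3.10.9.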

Additional observations from a re-analysis of the deposited data

Results flagged for a closer look

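Among 47 groups of 4 values checked, 5 had a highest or lowest value far from the other 3, by Dixon's test of the gap over the range. Chance flags about 1 in 20 such groups. Averaged over the breeds, LUM was at -0.79 for replicate 2, while the other 3 lay between -0.10 and -0.05. In Holstein-Friesian, replicate 1 had the lowest SMAD2 ratio, -0.64, and replicate 3 the lowest COL3A1 ratio, -4.23. The COMP level was 10.53 log2 units in Hereford replicate 1 and 7.60 in Holstein-Friesian replicate 1, each above the other 3 bulls of its breed. 

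The ratios of 6 list genes differed between the breeds in limma's test of the difference, Hereford minus Holstein-Friesian. Over all probes 2.71% were called in that test. The differences were 0.83 for SMAD2, -0.82 for TGFB3, 0.46 for COL6A1, -1.80 for PCOLCE2, -1.36 for TNXB and -1.03 for FBLN5, each with 1 sign for all 4 Limousin partners. Against Limousin in the same dye, 2 of the 6 remained called, PCOLCE2 and TNXB. None of the 8 measured genes of the group was among them.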

How the results depend on the processing

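Of 416 values of the 8 genes under alternatives, 40 changed sign, all of results that had not passed, and 9 of 32 results never did. The number of the 8 genes called in Holstein-Friesian, 1 with the fit as reported, was 0 with no filter on dim probes, 0 on the arrays of that breed alone, 3 with median centring (LUM, SPARC, MMP2), and 0 to 1 with each replicate left out. In Hereford minus Holstein-Friesian median centring called 4 (LUM, SPARC, TIMP1, MMP2) in place of 0. Under every other alternative the number called in each of the 4 comparisons was as reported.

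Median centring moved the median of all probes to 0.10 in Hereford, -0.20 in Holstein-Friesian and 0.36 in the difference. It turned BGN to 0.054 in Hereford, -0.56 in Holstein-Friesian and 0.62 in the difference, and DCN to 0.11, -0.43 and 0.54, with -0.16 over both breeds. It turned SPARC to 0.30 and FMOD to 0.18 in Hereford, TIMP1 to -0.42 and TIMP2 to -0.31 in Holstein-Friesian, and the TIMP2 difference to 0.66. Over both breeds it turned TIMP1 to -0.019 and MMP2 to -0.10. Limousin in the same dye turned MMP2 to -0.092 in Hereford, 0.17 in Holstein-Friesian and -0.26 in the difference, LUM to -0.022 and SPARC to 0.013 in Hereford, BGN to -0.069 in Holstein-Friesian, and the differences of TIMP1 to -0.10 and COL6A1 to -0.23. The deposited log ratios turned the FMOD difference to -0.028. The cause was not tested.

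With each replicate left out, BGN ranged over -0.65 to 0.24 in Hereford, -0.29 to 0.27 in Holstein-Friesian, -0.55 to 0.043 in the difference (-0.70 without Hereford replicate 1 alone) and -0.47 to 0.22 over both breeds. FMOD ranged over -0.76 to 0.31, -0.41 to 0.082, -0.35 to 0.29 (-0.66 without Hereford replicate 1 alone) and -0.58 to 0.20. DCN over both breeds ranged from -0.094 to 0.14, MMP2 from -0.019 to 0.082, LUM in Hereford from -0.036 to 0.42 and SPARC from -0.42 to 0.12. The TIMP1 difference was -0.017 without Hereford replicate 1 alone and 0.02 to 0.12 otherwise.

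The Limousin bull as a replicate block left the SPARC ratio in Holstein-Friesian at -1.24 (limma adjusted p = 0.0392) and changed no call of the 8 genes. Probes called were 315 with median centring in Hereford (87.0% higher), against 1218 as reported (47.5% higher), and 683 in the same dye, 27 on the Hereford arrays alone and 30 to 1055 without 1 replicate number. In Holstein-Friesian they were 6678 (29.0% higher), against 1100 (46.5% higher), with 2129 from the deposited ratios and 78 to 810 without 1 replicate number. In the difference they were 6219 (78.1% higher), against 463 (57.5% higher), with 979 from the deposited ratios, 701 with the block, 231 in the same dye and 0 to 457 without 1 replicate number. Over both breeds they were 950 (23.1% higher), against 102 (53.9% higher), with 910 under the block, 483 with an offset of 10, 438 from the deposited ratios, 371 with all readings above background, 42 with no filter and 0 to 1 without 1 replicate number. Holstein-Friesian channels were the dimmest, and all 8 genes were well above background in every reading.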
